A study of Mus musculus with 42 samples.

Results

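The genes described here encode 6 nuclear receptors for retinoids and 3 proteins of retinoid metabolism, 9 of the 18337 genes named on the arrays. The receptors are Rara, Rarb, Rarg, Rxra, Rxrb and Rxrg, and the others are Aldh1a1, Aldh1a2 and Crabp1. Every probe set (the group of short probes that reads 1 transcript) annotated to exactly 1 of these symbols was taken, which gave 10 of the 12488 probe sets of the MG-U74Av2 array, for 8 of the genes, and 12 of the 45101 on Mouse430_2, for all 9. Rarb had no such probe set on MG-U74Av2. The set was selected on these same data: Rxrg and Aldh1a1 were chosen by their signals, whose difference between ganglia changes direction from whole tissue to captured cells, so their values are a description and carry no test.

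The samples were sensory ganglia of BALB/c mice, an inbred strain, kept under standard housing, with no treatment named. No source used here gives their ages. Dorsal root ganglion (DRG), home of the spinal sensory neurons, was compared with nodose ganglion (NG), home of vagal sensory neurons, in 3 experiments with 6 groups. In one, whole ganglia were lysed (5 DRG and 7 NG samples, MG-U74Av2). In the others about 150 neurons a sample were cut from the tissue with a laser and read on MG-U74Av2 (5 DRG, 5 NG) or on Mouse430_2 (9 DRG, 11 NG). The study calls these cells visceral sensory neurons, without a stated criterion in the sources used here. Each sample supplied about 12 µg of RNA for labelling, named as amplified RNA for captured cells on MG-U74Av2 and as total RNA for the other groups. Whether the captured RNA on Mouse430_2 was amplified is not stated. All 5 DRG and all 5 NG sample numbers of captured cells on MG-U74Av2 also occur on Mouse430_2, so those experiments may share RNA, which no label states, and are not taken as independent of each other. No label ties samples to different animals, so the p-values reflect the spread among the samples at hand, part or all of which may be technical.

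Retinoic acid is made from vitamin A by oxidation of retinol to retinaldehyde and then, by enzymes of the Aldh1a family, to the acid. Inside the cell it is held by binding proteins such as Crabp1 and Crabp2 and removed by Cyp26 enzymes. It acts through retinoic acid receptors (RARs), which bind DNA together with retinoid X receptors (RXRs), and RXRs also pair with thyroid hormone, vitamin D, PPAR and LXR receptors. In the developing nervous system the pathway acts in axial patterning and neuronal differentiation, and in adult sensory neurons it has been linked to neurite growth.

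The promoters of Rxrg and Aldh1a1, the genes whose signals chose the set, are printed here with that of Rarb, a textbook target of RARs. RefSeq promoter sequences (build GRCm38.p6, 250 bases before to 50 after an annotated start) were found for all 9 genes, 17 windows in all, among 32851 windows of 27025 genes. Sites were searched on both strands as direct repeats of GNTCA, where N is any base, with the spacing of RAR and RXR pairs: DR1 as GNTCANNGNTCA, DR2 as GNTCANNNGNTCA and DR5 as GNTCANNNNNNGNTCA. DR5 occurred in 0.861% of all windows and in 1 of the 17, that of Rarb, at position -52 from the start, where its capitals mark it. DR1 (1.26% of all windows) and DR2 (1.12%) occurred in none of the 17. The single core hexamers AGGTCA and GGTTCA, which can lie inside such repeats, occurred in 16.3% and 10.4% of all windows and in 4 and 2 of the 17; the GGTTCA of Rarb overlaps its DR5. In Rxrg the capitals mark its 1 hexamer, AGGTCA at position -88 of the downstream window, and the Aldh1a1 windows held neither.
Rarb, chr14:16575427-16575726, minus strand: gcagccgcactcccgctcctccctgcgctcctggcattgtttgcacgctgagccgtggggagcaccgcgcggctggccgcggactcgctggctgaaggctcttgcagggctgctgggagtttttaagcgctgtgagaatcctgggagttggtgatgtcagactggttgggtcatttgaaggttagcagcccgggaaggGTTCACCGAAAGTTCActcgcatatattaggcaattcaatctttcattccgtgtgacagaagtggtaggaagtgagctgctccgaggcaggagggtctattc
Rxrg upstream window, chr1:167598112-167598411, plus strand: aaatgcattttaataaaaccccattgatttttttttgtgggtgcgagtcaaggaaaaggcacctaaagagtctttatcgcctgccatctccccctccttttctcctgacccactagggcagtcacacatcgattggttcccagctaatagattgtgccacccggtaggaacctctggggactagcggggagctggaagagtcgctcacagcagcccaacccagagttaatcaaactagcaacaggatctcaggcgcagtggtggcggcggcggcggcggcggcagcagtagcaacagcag
Rxrg downstream window, chr1:167618015-167618314, plus strand: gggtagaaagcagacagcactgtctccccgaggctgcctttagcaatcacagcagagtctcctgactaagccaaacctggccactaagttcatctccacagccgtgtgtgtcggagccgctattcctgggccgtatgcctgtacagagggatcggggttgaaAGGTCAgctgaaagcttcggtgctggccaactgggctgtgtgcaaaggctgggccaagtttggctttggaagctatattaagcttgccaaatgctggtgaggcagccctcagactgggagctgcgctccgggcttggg
Aldh1a1 upstream window, chr19:20492333-20492632, plus strand: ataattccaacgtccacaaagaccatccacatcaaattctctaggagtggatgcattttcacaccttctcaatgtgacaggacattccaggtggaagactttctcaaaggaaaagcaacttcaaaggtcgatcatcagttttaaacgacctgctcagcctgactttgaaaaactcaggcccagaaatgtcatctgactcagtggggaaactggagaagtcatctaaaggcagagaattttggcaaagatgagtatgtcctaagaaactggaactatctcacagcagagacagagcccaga
Aldh1a1 downstream window, chr19:20601718-20602017, plus strand: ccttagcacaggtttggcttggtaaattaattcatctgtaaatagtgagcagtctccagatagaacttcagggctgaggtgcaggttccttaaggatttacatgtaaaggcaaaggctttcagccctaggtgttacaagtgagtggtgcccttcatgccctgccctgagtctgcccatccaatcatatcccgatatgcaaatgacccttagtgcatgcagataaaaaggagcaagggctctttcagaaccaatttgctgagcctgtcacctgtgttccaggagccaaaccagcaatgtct
The printed windows also differed in base composition. CG dinucleotides, whose median over all windows was 7, numbered 17 in Rarb, 13 and 9 in Rxrg, and 3 and 1 in Aldh1a1. The highest count among the 17 windows was 55, in the upstream window of Rxra.

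The deposited signals were scaled so that all arrays of an experiment had the same mean after trimming 2% at each end, a mean that had been 174.9 to 408.3 for whole ganglia, 187.7 to 274.5 for captured cells on MG-U74Av2 and 84.24 to 200.5 for those on Mouse430_2. Differences are NG minus DRG on the log2(signal + pseudocount) scale, with pseudocounts of 12.3, 10.4 and 7.5, which understates the change of dim genes. Levels are not compared between genes, because each probe set has its own brightness. A signal above the 40th percentile of all signals on its array is called above the filter level here. A probe set was tested where the number of arrays above that level reached the size of the smaller group, and it is said to be called where limma's adjusted p was under 0.05. The captured cells carried neuronal RNA: Tubb3, a neuronal tubulin, had a mean signal of 6825 in NG and 5815 in DRG on MG-U74Av2. In whole ganglia, scaled separately, it had 5721 and 6698. The other neuronal genes listed did not move in 1 direction. Prph and Scn10a had higher means in captured cells than in whole tissue of both ganglia. Uchl1 (2196 in NG and 1723 in DRG, against 4703 and 4090), Snap25 and Nefl had lower ones. The serotonin-gated channel subunit Htr3a, a vagal marker here, was 9.145-fold higher in captured NG on MG-U74Av2 and 10.89-fold on Mouse430_2. Prrxl1, a transcription factor of somatosensory neurons, was 9.711-fold higher in captured DRG on Mouse430_2. Glial transcripts were present as well, and their values stand beside the results below.

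Rxrg encodes the RXR with the most restricted tissue distribution. In whole ganglia it was dim, and higher in NG on average. Its scaled signal was 41.94, 8.885, 8.583, 9.467 and 38.89 in the 5 DRG samples and had a lowest value of 26.15, a median of 50.95 and a highest of 54.89 in the 7 NG samples. The DRG samples fell into a pair (samples 070 and 037) and 3 low ones, and the pair overlapped the lowest NG sample. Means were 21.55 ± 17.25 (SD, n = 5) in DRG and 47.33 ± 10.04 (SD, n = 7) in NG, a log2 difference of 0.94 (SE 0.27). Only 1 DRG and 6 NG arrays lay above the filter level. The probe set thus passed the filter through NG, so a difference was built into its passing. In bulk tissue, fewer cells of a type and less RNA per cell cannot be told apart.

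In captured neurons the order was the opposite. On MG-U74Av2 the same probe set read 125.5, 84.63, 50.38, 91.86 and 101.2 in DRG and 5.144, 7.04, 4.45, 3.628 and 6.06 in NG. Every DRG sample lay above every NG sample, and all 5 NG values were below the filter level of their arrays. Means were 90.72 ± 27.32 and 5.264 ± 1.336 (SD, n = 5 each), a log2 difference of -2.65 (SE 0.24), or 6.264-fold on that scale. The probe set passed the filter through its 5 DRG arrays, so a difference was built into its passing. Over all 7583 probe sets tested, 16.3% had groups that did not overlap, 8.37% with DRG the higher.

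On Mouse430_2, where Rxrg is read by another probe set, its signal ran from 173.7 through a median of 278.3 to 356 in the 9 DRG samples and from 26.77 through 59.35 to 127.4 in the 11 NG samples. The groups again did not overlap, which held for 3.84% of the 28107 probe sets tested, 2.27% with DRG the higher. All 20 arrays lay above the filter level. The log2 difference was -1.91 (SE 0.22), or 3.747-fold. The samples whose numbers are absent from MG-U74Av2 gave 289.5 ± 78.08 in DRG (SD, n = 4) and 66.98 ± 26.47 in NG (SD, n = 6), ranges that did not overlap either (173.7 to 343.8 against 41.6 to 102.6).

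Aldh1a1 encodes a retinaldehyde dehydrogenase, the enzyme class that makes retinoic acid. In whole ganglia its scaled signal was 554.9, 414.8, 417, 210.7 and 512.8 in the DRG samples and 458.8, 505.8 and 805.9 (lowest, median and highest) in NG. The groups overlapped, with means of 422 ± 132.9 (SD, n = 5) and 563.4 ± 120.9 (SD, n = 7) and a log2 difference of 0.45 (SE 0.20). The dimmer Aldh1a1 probe set of the same array, which did not pass the filter, had the opposite sign (-0.60), and the mean of both gave -0.07, so the sign in whole ganglia rests on the brighter probe set.

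Captured neurons separated by ganglion. On MG-U74Av2 Aldh1a1 read 150.6, 104.6, 154.6, 146.8 and 240 in DRG and 19.95, 6.778, 5.735, 1.109 and 53.59 in NG. No NG sample reached the lowest DRG sample, as for 8.37% of all probe sets tested there with DRG the higher. Only 1 of the 5 NG values passed the filter level. The probe set passed the filter through its 5 DRG arrays, so a difference was built into its passing. The log2 difference was -2.85 (SE 0.39), or 7.204-fold. The dimmer probe set differed by -0.16 and was above the filter level on 1 of 10 arrays. On Mouse430_2 the DRG samples lay close together, from 105.7 through 137.3 to 168.5, while the NG samples spread from 3.05 through 8.472 to 59.91. The difference was -2.77 (SE 0.29), or 6.802-fold. Such a gap with DRG the higher was seen in 2.27% of all probe sets tested there. Above the filter level were 9 DRG and 4 NG arrays, so passing again came through DRG. NG samples 014 and 010 were the highest on MG-U74Av2, and on Mouse430_2 sample 014 was again the highest (59.91), followed by 015 (43.33) and 010 (29.13). Without the numbers shared with MG-U74Av2, NG ranged from 3.811 to 43.33 and DRG from 105.7 to 168.5. Aldh1a7, a close paralog in the mouse whose transcripts a probe set could share, had differences on MG-U74Av2 of 0.03 in whole ganglia (adjusted p = 0.9345) and 0.01, under the filter, in captured cells. On Mouse430_2, also under the filter, it differed by -0.41 (11.18 in DRG, 6.64 in NG), the direction of Aldh1a1.

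**Figure D1:**
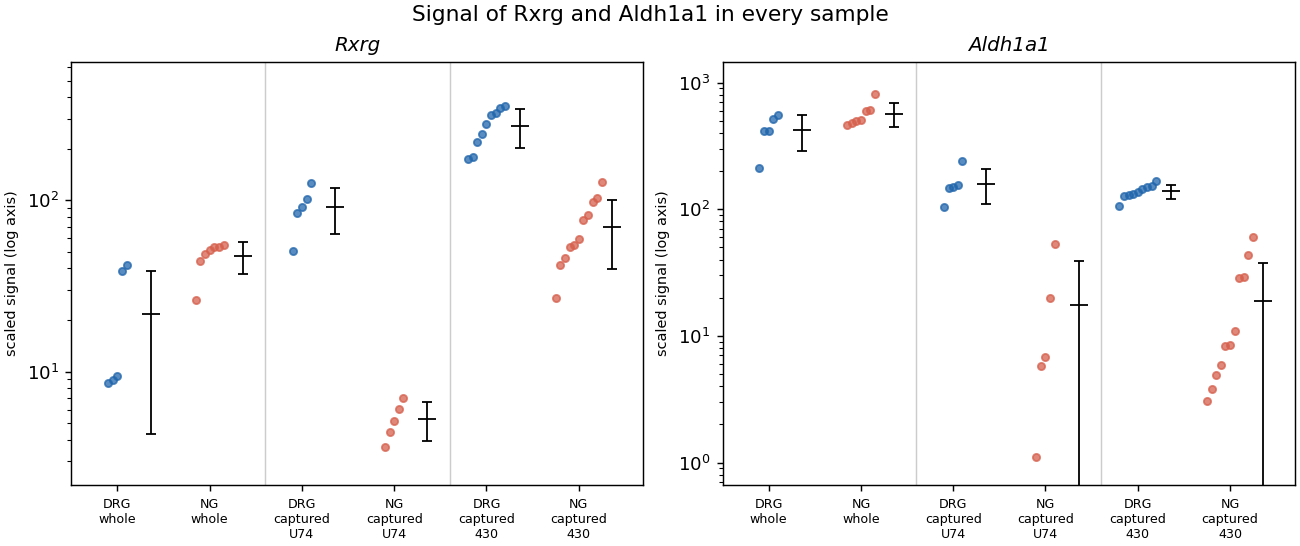
Scaled signal of Rxrg and Aldh1a1 in every sample of the 6 groups, on a log axis (blue, DRG; red, NG; U74, MG-U74Av2; 430, Mouse430_2). Points are samples in order of size, the black mark beside them is the mean with its SD, and an SD bar that reaches 0 is cut at the axis. Captured DRG lies above captured NG on both array types without overlap (Rxrg at least 50.38 against at most 7.04 on MG-U74Av2), while in whole ganglia the groups overlap and the NG mean is the higher.

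The 4 groups on MG-U74Av2 were also scaled and fitted together, to set captured cells against whole ganglia within each ganglion. Capture and RNA amplification change together in that comparison and cannot be told apart. Rxrg went from 20.59 ± 16.49 (SD, n = 5, as for all groups here but whole NG with n = 7) to 96.08 ± 28.93 in DRG, a log2 difference of 1.85 (SE 0.27), and from 45.23 ± 9.593 to 5.575 ± 1.415 in NG, a difference of -1.72 (SE 0.25). By its brighter probe set Aldh1a1 was lower in captured cells of both ganglia. It went from 403.3 ± 127 to 168.7 ± 52.29 in DRG (-1.18, SE 0.32) and from 538.4 ± 115.5 to 18.46 ± 22.65 in NG (-4.46, SE 0.29). The dimmer Aldh1a1 probe set, which passed the filter in this fit, gave -0.45 in DRG (SE 0.3) and 0 in NG (SE 0.27). The fall in NG thus rests on the brighter probe set. The ganglion difference in captured cells less that in whole tissue was -3.57 (SE 0.37) for Rxrg. For Aldh1a1 this difference was -3.28 (SE 0.43) by the brighter probe set and 0.45 (SE 0.4), the opposite sign, by the dimmer one. For comparison, 18.2% of the 8309 probe sets of that fit had such a difference with an adjusted p under 0.05, made up of 10.5% negative and 7.71% positive.

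Markers of other cell types also differed between the ganglia, not all in the direction of Rxrg and Aldh1a1, and their part in these differences was not tested. Of the 9 satellite glia and Schwann cell genes tested in captured cells on MG-U74Av2, 3 were higher in DRG (Gja1, S100b and Fabp7) and 0 in NG, and the summed signal of the list's 11 measured genes was 7212 to 8889 in DRG and 4790 to 6014 in NG. Of all probe sets tested there, 11.3% were higher in DRG. The gap junction gene Gja1 differed by -2.28 (SE 0.27, adjusted p = 3.576e-05), with means of 977.3 in DRG and 212.1 in NG. On Mouse430_2, 4 of 11 such genes were higher in DRG and 1 (Cnp) in NG, with sums of 11930 to 14670 and 10830 to 12790 that overlapped. Mural cell genes there were higher in DRG in 3 of 4 tested (Rgs5, Pdgfrb and Acta2), with sums of 1274 to 2753 against 250.2 to 684.6, where 12.5% of all probe sets were higher in DRG. The fibroblast gene Dcn was higher in captured DRG on both array types (-1.42 and -1.85), and of the 7 fibroblast genes tested on each it was the 1 called. Captured endothelial genes were split. On MG-U74Av2, 1 of 5 tested was higher in NG (Kdr by 1.63) and 2 in DRG (Cdh5 by -1.8 and Eng by -0.98). On Mouse430_2, 2 of 7 were higher in NG and 1 in DRG. Of 3 macrophage genes tested on each, C1qc was higher in NG on MG-U74Av2 (1.34) and 0 were called on Mouse430_2. Of all probe sets, 10.4% and 9.72% were higher in NG. The neuronal list did not set the ganglia apart in 1 direction: on Mouse430_2, 2 of its 7 were called for NG and 1 for DRG, with sums of 16390 to 22360 and 15890 to 24290. In whole ganglia 5 of 7 endothelial genes were higher in NG, with sums of 1271 to 2030 against 829.8 to 1080, and 3 of 6 macrophage genes were too, against 19.6% of all probe sets. Higher in whole DRG were 3 of the 10 genes tested from the satellite glia and Schwann cell list, with 0 higher in NG. These were Mobp (-4.2), S100b (-0.82) and Pmp22 (-0.26). Mobp is a gene named for oligodendrocytes, and the source of its signal was not tested. In whole NG it read 1.702 to 5.404, below the filter level. It passed the filter through DRG alone, so a difference was built into its passing. Of the mural genes, 2 of 4 were higher in whole DRG (Rgs5 by -1.02 and Pdgfrb by -0.61). Of all probe sets, 15.8% were.

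Of the 7 other genes, 2 to 5 passed the filter in an experiment and were tested. In whole ganglia 6 were on the array, 3 passed the filter and 1 was called, Rarg, with DRG the higher and with a limit given below. Of all probe sets tested 35.4% were called, 15.8% with DRG the higher. On MG-U74Av2, 2 of 6 passed the filter in captured cells, and limma called 0 and found 0 at an unadjusted p under 0.05, where 21.8% of all probe sets were called. On Mouse430_2 5 of 7 passed and 2 were called, Rxra and Rxrb, both with NG the higher, and 3 had an unadjusted p under 0.05. There 22.2% of all probe sets were called, 9.72% with NG the higher. In the joint fit 3 of 6 were tested, and the same 2, Rxrb (captured cells the higher) and Rarg (whole tissue the higher), were called in each ganglion, Rarg with the limit given below. Of all probe sets tested there, 47.2% were called in DRG and 55.3% in NG. The interaction called 0 of the 3, where 1 (Rarg) had an unadjusted p under 0.05. It called 18.2% of all probe sets.

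Of the RARs, Rarg, a receptor known for its role in skin and skeletal development, was measured in all experiments. In whole ganglia its signal was 150.4, 131.4, 105.3, 99.21 and 122.5 in DRG, a narrow range, and 27.53, 16.31, 82.16, 61.6, 19.6, 117 and 24.82 in NG, a wide one. The highest NG sample (023) lay inside the DRG range, and 3 of the 7 NG arrays passed the filter level. The log2 difference was -1.32 (SE 0.33, 95% interval -2.02 to -0.61, limma adjusted p = 0.005727). The probe set passed the filter through its 5 DRG arrays, so a difference was built into its passing, which limits this p-value. In captured cells on MG-U74Av2 the same probe set was below the filter level on all 10 arrays, at 12.17 to 21.25 in DRG and 6.946 to 18.68 in NG. The joint fit gave captured minus whole differences of -2.17 in DRG (SE 0.32) and -1 in NG (SE 0.29). The probe set entered that fit through whole-ganglion arrays alone, so a difference was built into its passing, and these sizes are set against captured signals below the filter level. The NG difference less the DRG one, 1.17 (SE 0.43), did not pass (adjusted p = 0.05874), but it passed with quantile normalization, with scaling to the same median, with the pseudocount at the 40th percentile, and without NG sample 023, 039 or 073 of the whole ganglia or 010 of the captured cells (adjusted p from 0.01154 to 0.04638). The same limit holds for that test. Captured minus whole differences with a negative sign were called for 24.3% of all probe sets in DRG and 29.2% in NG.

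On Mouse430_2, by contrast, a different Rarg probe set was above the filter level on all 20 arrays. It ran from 40.95 through 91.97 to 153.3 in DRG and from 67.81 through 135.2 to 163.6 in NG, with a difference of 0.39 (SE 0.19, 95% interval 0.01 to 0.78, adjusted p = 0.1404). With arrays scaled to the same median it passed (0.54, adjusted p = 0.02606), as it did within the samples whose numbers are absent from MG-U74Av2 (0.84, adjusted p = 0.0291). A second, dimmer probe set differed by 0.48 (adjusted p = 0.302). Captured cells thus gave Rarg signal above the filter level on 1 array type and below it on the other, and levels of different probe sets cannot be set against each other.

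Rarb, the RAR whose promoter holds the DR5 printed above, was read on Mouse430_2 alone. Its signal was low and spread widely, from 3.813 through 22.81 to 42.77 in DRG and from 2.286 through 17.05 to 57.88 in NG, and 5 arrays of each group lay above the filter level. The difference was -0.17 (SE 0.30, adjusted p = 0.7467), with a 95% interval from -0.79 to 0.44. Rara, the RAR found in most tissues, did not rise above the filter level on any array. Its signal was 2.355 to 7.105 in whole ganglia, 2.433 to 4.694 in captured cells on MG-U74Av2 and 3.026 to 14.81 on Mouse430_2.

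Rxra and Rxrb, the widely expressed RXRs, were above the filter level on all arrays by their brightest probe sets. Rxra read 184.3, 224.9, 258.4, 212.4 and 182 in whole DRG, inside the NG range of 161.4 to 242.6 except for 1 sample, and the difference was -0.06 (SE 0.13, adjusted p = 0.7653, 95% interval -0.32 to 0.21). A second Rxra probe set gave 0.38 (adjusted p = 0.05046). Captured cells on MG-U74Av2 gave Rxra signals of 165, 154.6, 49.74, 188.4 and 189.5 in DRG and 156, 333.9, 169, 179.5 and 88.07 in NG, a difference of 0.29 (SE 0.35, adjusted p = 0.5899) with an interval of -0.45 to 1.04 that leaves room for a change of either sign. On Mouse430_2 its brightest probe set separated the groups, 81.83 through 97 to 126.2 in DRG against 130.7 through 170.7 to 234.5 in NG, a difference of 0.77 (SE 0.13, adjusted p = 7.071e-05). Such a gap with NG the higher was seen in 1.58% of all probe sets tested. Its second probe set there did not: 72.28 ± 29.68 in DRG and 71.29 ± 23.88 in NG, a difference of 0 (95% interval -0.49 to 0.5, adjusted p = 0.9953), and its dimmest lay under the filter level on all 20 arrays. The call thus rests on 1 of 3 probe sets, and the mean over them was not called (0.21, adjusted p = 0.3857).

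In whole ganglia Rxrb read 769.2, 1092, 782.9, 704.5 and 649.7 in DRG and 626.8, 1057 and 1422 (lowest, median and highest) in NG, overlapping, with a difference of 0.25 (SE 0.19, adjusted p = 0.3411, 95% interval -0.16 to 0.66). In captured cells on MG-U74Av2 it read 1753, 1275, 1071, 1234 and 1354 in DRG and 1335, 1357, 771.5, 1614 and 1487 in NG, a difference of -0.05 (SE 0.19, adjusted p = 0.8799). On Mouse430_2 NG was higher by 0.39 (SE 0.12, adjusted p = 0.01717), with overlapping ranges of 894.2 to 1484 in DRG and 1081 to 1989 in NG. That call was lost within the samples whose numbers are also on MG-U74Av2 (0.35, adjusted p = 0.08876) and within the others (0.38, adjusted p = 0.1567). In the joint fit Rxrb was higher in captured cells than in whole tissue of both ganglia, by 0.88 in DRG (SE 0.21, adjusted p = 0.001095) and by 0.58 in NG (SE 0.19, adjusted p = 0.01313). Such differences were common: 47.2% of all probe sets passed in DRG, 22.9% of all with captured cells the higher, and 55.3% and 26.2% in NG. The brightest Rxra probe set was not called in that comparison (-0.44 in DRG, adjusted p = 0.1832, and -0.09 in NG, adjusted p = 0.7717). Its second probe set disagreed and was called with captured cells the higher (0.55 in DRG, adjusted p = 0.005212, and 0.47 in NG, adjusted p = 0.007215). By their brightest probe sets, the ganglion differences of Rxra and Rxrb were not shown to depend on capture (0.35, adjusted p = 0.5562, and -0.3, adjusted p = 0.508).

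**Figure D2:**
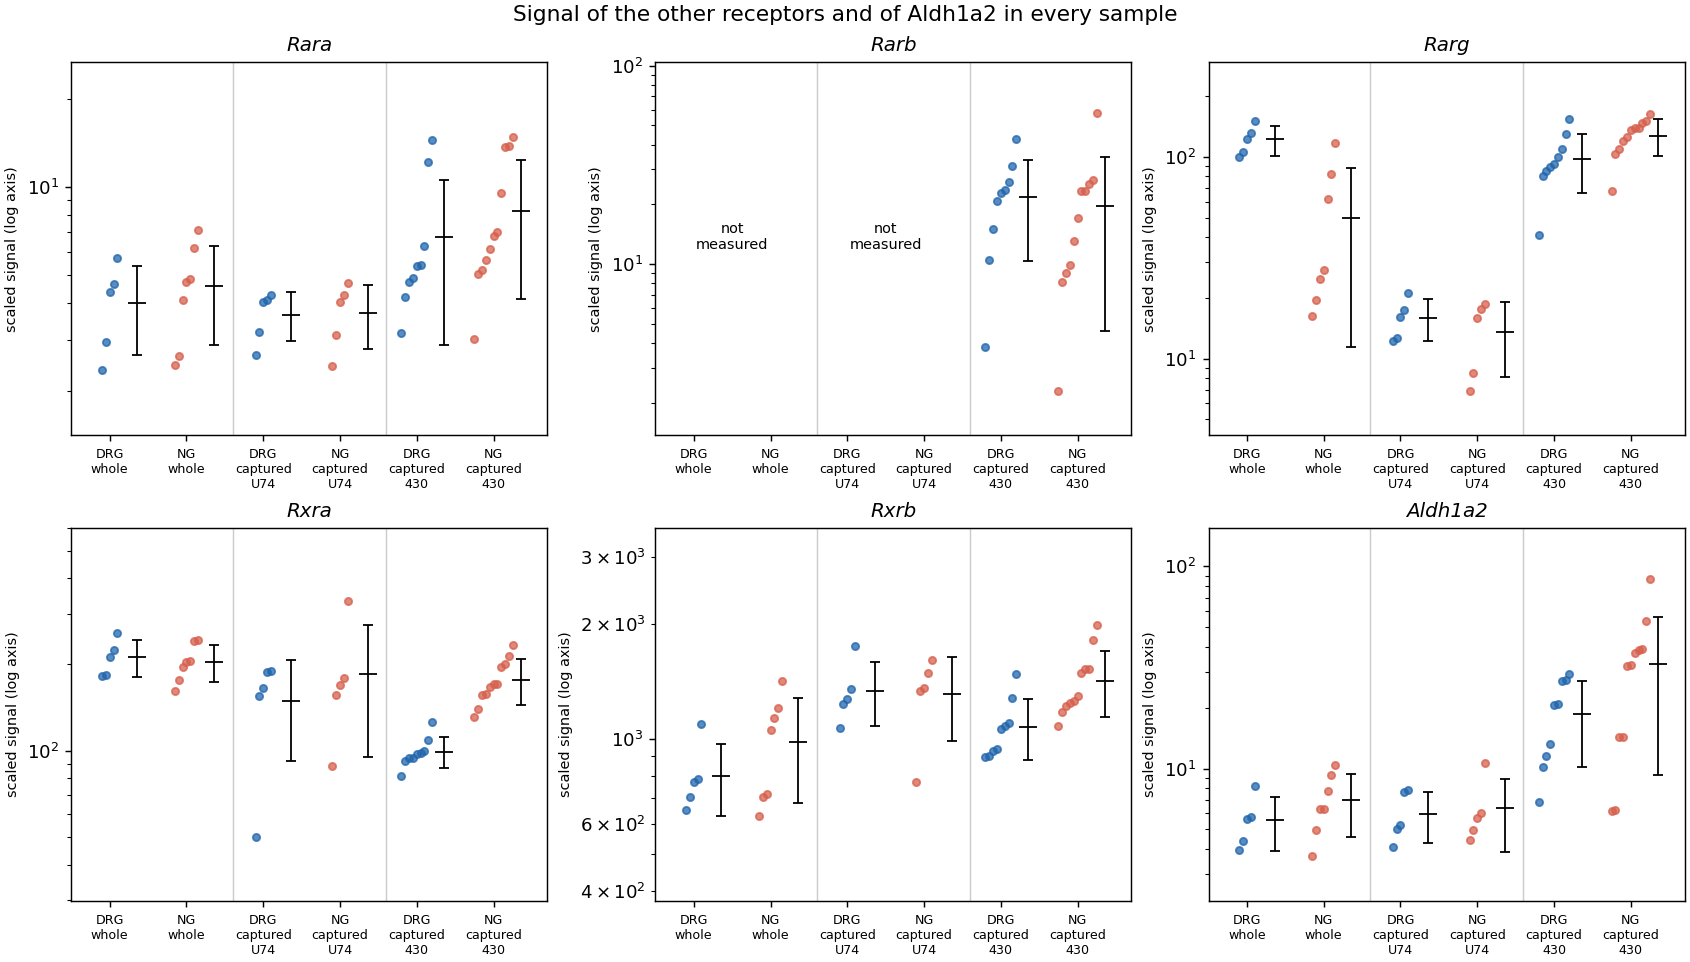
Scaled signal of Rara, Rarb, Rarg, Rxra, Rxrb and Aldh1a2 in every sample (log axes that differ between panels; blue, DRG; red, NG; points, samples in order of size; black marks, mean and SD). The brightest probe set of each gene is shown. Rarg lies at 99.21 to 150.4 in whole DRG and at most at 21.25 in captured DRG on MG-U74Av2, and on Mouse430_2 the Rxra groups do not overlap (at most 126.2 in DRG, at least 130.7 in NG).

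Of the remaining genes of metabolism, Aldh1a2, the main retinoic acid producing enzyme of the early embryo, was below the filter level on all 22 MG-U74Av2 arrays, at 3.69 to 10.71. On Mouse430_2 it passed on 10 of 20 arrays, 3 of DRG and 7 of NG. The signal there was 6.864 through 20.61 to 29.39 in DRG and 6.168 through 32.42 to 86.3 in NG, a difference of 0.47 (SE 0.31, 95% interval -0.17 to 1.1, adjusted p = 0.316). Crabp1, which binds retinoic acid in the cytoplasm, passed the filter in no single experiment. Its signal was 19.15 to 36.35 in whole DRG and 23.87 to 56.15 in whole NG. In captured cells on MG-U74Av2 it was 26.82, 13.09, 49.74, 39.08 and 32.96 in DRG and 24.29, 12.51, 5.096, 18.28 and 21.66 in NG, overlapping ranges. On Mouse430_2 the means were 15.62 ± 9.334 in DRG (SD, n = 9) and 15.38 ± 7.77 in NG (SD, n = 11).

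**Figure D3:**
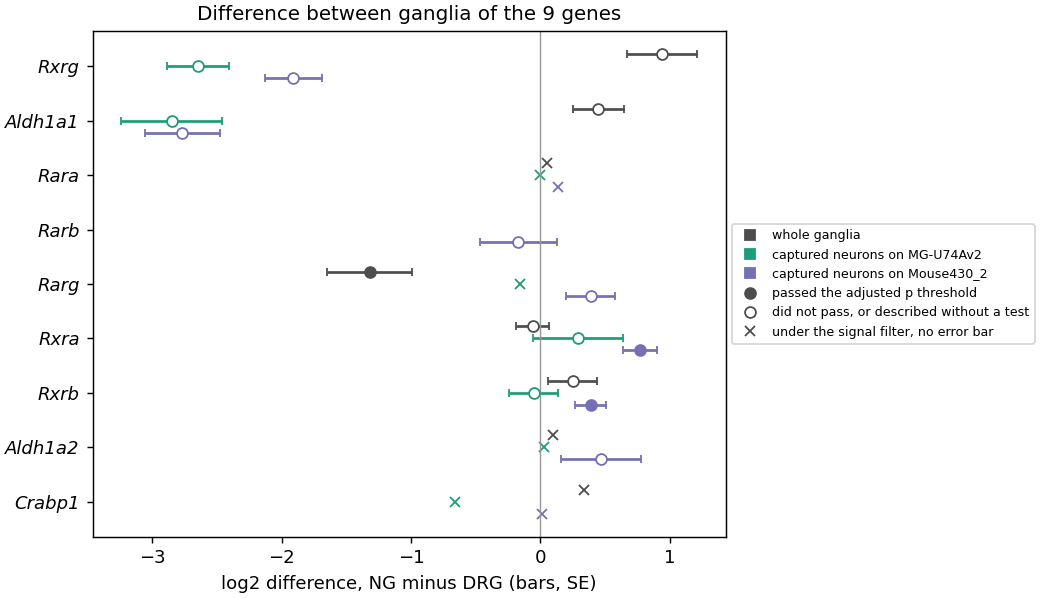
Log2 difference, NG minus DRG, of the 9 genes in the 3 experiments (grey, whole ganglia; green, captured on MG-U74Av2; purple, captured on Mouse430_2; bars, SE). Filled points passed limma's adjusted p threshold, open points did not or, for Rxrg and Aldh1a1, are described without a test, and crosses lay under the signal filter. Rxrg and Aldh1a1 stand at 0.94 and 0.45 in whole ganglia and between -2.85 and -1.91 in captured neurons, while the other 7 genes stay between -1.32 and 0.77.

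The rest of the pathway was read from a list of 59 genes of retinoid uptake, oxidation, binding, degradation, receptor partners, coregulators and targets, each by its brightest probe set. In whole ganglia 28 of the 39 on the array were tested, 6 were higher in NG and 2 in DRG, and their median difference was 0.17, against 0.051 over all probe sets tested. Of the genes read in captured cells on MG-U74Av2, 22 were tested, 3 were higher in NG and 3 in DRG, and the median was -0.08 against 0.047. On Mouse430_2 38 of 52 were tested, 6 were higher in NG and 7 in DRG, and the median was -0.1 against -0.051. The shares called over all probe sets were those given above, 35.4%, 21.8% and 22.2%.

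Ppara, a fatty acid receptor that binds DNA with RXRs, was higher in NG in all 3 experiments. It read 101 ± 14.96 in NG (SD, n = 7) and 58.42 ± 11.54 in DRG (SD, n = 5) in whole ganglia (0.68, SE 0.14, adjusted p = 0.001094). Captured cells gave 1.04 on MG-U74Av2 (adjusted p = 0.003543) and 1.28 on Mouse430_2 (adjusted p = 0.002288), where the call was lost within the samples whose numbers are absent from MG-U74Av2 (adjusted p = 0.1173). The thyroid hormone receptor Thra, another RXR partner, was higher in captured NG on both array types, by 0.53 (adjusted p = 0.001875) and 0.68 (adjusted p = 1.822e-06). Rdh13, a retinol dehydrogenase, was higher there too, by 0.55 (adjusted p = 0.02405) and 0.7 (adjusted p = 0.000767). Among carriers and targets on Mouse430_2, the plasma retinol carrier Rbp4 (0.92, adjusted p = 0.02874) and the transglutaminase Tgm2, a classical retinoic acid target (1.24, adjusted p = 0.001555), were higher in NG. Tgm2 was 290.1 ± 61.28 in DRG (SD, n = 9) and 814.3 ± 495.3 in NG (SD, n = 11), and in captured cells on MG-U74Av2 it was not called (0.08, adjusted p = 0.8841). Some of these calls depended on the samples or the settings. On MG-U74Av2 Rdh13 was lost without DRG sample 003 or 014 or NG sample 007. It was lost too with the Gapdh 3' to 5' ratio as a covariate and with a block on sample number (adjusted p up to 0.1066 over the settings tried). On Mouse430_2 Rdh13 and Tgm2 were lost within the numbers shared with MG-U74Av2 (adjusted p = 0.1361 and 0.1144). Rbp4 was lost without DRG sample 011 or 015 or NG sample 005, 007 or 014. It was also lost within the numbers absent from MG-U74Av2 (adjusted p up to 0.2158 over the settings tried). The call was given by 1 of 2 tested probe sets for Ppara on Mouse430_2, 1 of 2 for Rdh13 and for Thra on MG-U74Av2, 2 of 3 for Thra and 4 of 5 for Tgm2 on Mouse430_2.

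In DRG the corepressor Nrip1, which binds liganded RARs and RXRs, was higher in whole ganglia, at 652.6 ± 49.19 (SD, n = 5) against 294.8 ± 72.78 in NG (SD, n = 7; -1.15, SE 0.15, adjusted p = 9.954e-06), and in captured cells on Mouse430_2, at 330.4 ± 57 (SD, n = 9) against 110.2 ± 44.07 (SD, n = 11; -1.61, SE 0.2, adjusted p = 1.054e-06), where all 4 of its tested probe sets were called. In captured cells on MG-U74Av2 it had the same sign and did not pass (-0.46, adjusted p = 0.3106). On Mouse430_2 the coactivator Ncoa2 (-1.44, adjusted p = 0.0009863) and Rarres1, a gene named for its induction by retinoids (-0.94, adjusted p = 0.004421), were higher in DRG. Captured DRG on MG-U74Av2 carried more Fabp5, a fatty acid binding protein that also carries retinoic acid (-1, adjusted p = 0.009145), and more of the acetyltransferase Crebbp (-0.51, adjusted p = 0.02103) and the retinol dehydrogenase Rdh11 (-0.51, adjusted p = 0.04409). On Mouse430_2 none of these 3 was called: Fabp5 was -0.21 (adjusted p = 0.09), Crebbp -0.16 (adjusted p = 0.3758) and Rdh11 -0.18 (adjusted p = 0.672). With the Gapdh 3' to 5' ratio as a covariate the calls of all 3 on MG-U74Av2 were lost (adjusted p = 0.05317 for Fabp5). The mediator subunit Med1 was higher in whole DRG (-0.35, adjusted p = 0.01671). That call was lost without DRG sample 084 and in the joint fit of the 4 groups (adjusted p up to 0.2061 over the settings tried). The Rdh11 call was lost on leaving out DRG sample 003, 006 or 008 or NG sample 003, 007 or 008 (adjusted p up to 0.2317 over the settings tried), that of Crebbp without DRG sample 006 or 010, that of Ncoa2 within the numbers absent from MG-U74Av2 and that of Rarres1 within those shared with it. Probe sets of a gene did not all give its call: 2 of 4 tested did for Ncoa2, and 1 of 2 for Rdh11.

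Some of these genes had a ganglion difference that itself differed between whole and captured tissue on MG-U74Av2, as tested by the interaction in the joint fit, which for these genes was added after the data were seen. Of 28 genes tested 5 passed, against 18.2% of all probe sets, and all 5 are named here. Of these, 4 were negative, as for Rxrg and the brighter Aldh1a1 probe set, and 1 was positive. Without NG sample 073 of the whole ganglia 8 passed. The orphan receptors Nr2f2 and Nr2f1 (COUP-TFs), which can pair with RXRs and compete for retinoid response elements, were among them. Nr2f2 had mean signals of 110.5 in whole DRG, 288.6 in whole NG, 57.49 in captured DRG and 15.81 in captured NG, so NG was the higher in whole ganglia (1.3) and the lower in captured cells (-1.36), an interaction of -2.65 (SE 0.35, adjusted p = 6.573e-06). In the captured experiment alone it did not pass the filter. Nr2f1 went from 1.05 in whole ganglia to -0.18 in captured cells (interaction -1.22, SE 0.24, adjusted p = 0.0006092). On Mouse430_2 Nr2f1 was higher in captured DRG (-0.58, adjusted p = 0.007628), a call lost within either subset of numbers and with the replicate block. Nr2f2 was not called there (-0.37, adjusted p = 0.3246). Fabp5 turned from 0.65 in whole ganglia to -1 in captured cells (interaction -1.65, SE 0.29, adjusted p = 0.000271), and Crebbp from 0.35 to -0.51 (interaction -0.86, SE 0.19, adjusted p = 0.001938). Med1 ran the other way, from -0.36 to 0.63 (interaction 0.99, SE 0.3, adjusted p = 0.01994), but on Mouse430_2 it was higher in captured DRG (-0.59, adjusted p = 0.01852). That call came from 1 of 3 tested probe sets and was lost with scaling to the same median, with the replicate block and within the numbers shared with MG-U74Av2 (adjusted p up to 0.4362).

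**Figure D4:**
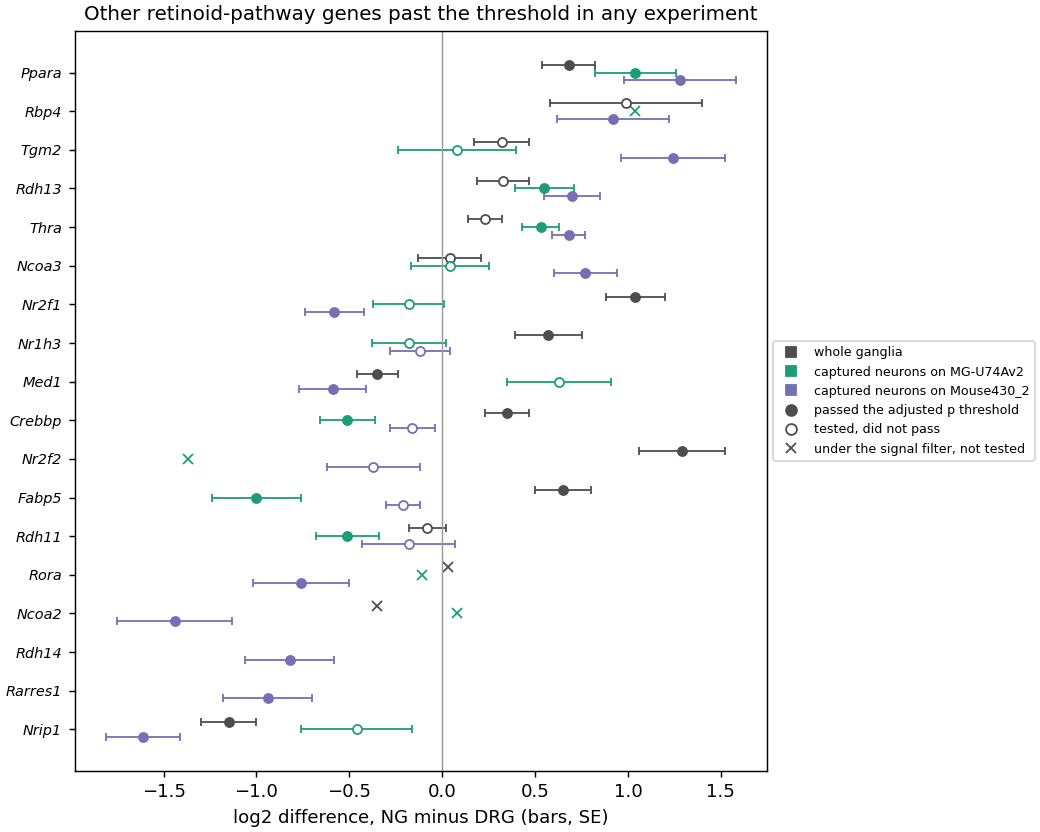
Log2 difference, NG minus DRG, of the 18 other retinoid-pathway genes called in any of the 3 experiments (grey, whole ganglia; green, captured on MG-U74Av2; purple, captured on Mouse430_2; bars, SE; filled, past the adjusted p threshold; open, tested and not past it; crosses, under the signal filter). Ppara is filled on the NG side in all 3 experiments and Nrip1 on the DRG side in 2, while Nr2f1, Fabp5 and Crebbp lie on the NG side in whole ganglia and on the DRG side in captured cells.

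The genes whose signals were most like those of Rxrg and Aldh1a1 were found by Pearson's r on log2 signals. Across the 22 MG-U74Av2 arrays of all 4 groups, among 6254 genes, they were Midn, Wdr82, Mark3, Ahcy and Pon2 for Rxrg, with r from 0.83 to 0.89 and Spearman's rho from 0.8 to 0.88. For Aldh1a1 they were Psat1, Rnf11, Plpp3, Ndrg1 and Tmed7, with r from 0.95 to 0.96 and rho from 0.8 to 0.94. These arrays share their group means, so such values mostly restate a like order of the 4 groups. Across the 20 Mouse430_2 arrays after centring each ganglion on its mean, among 13957 genes, the nearest to Rxrg were Skida1, Pappa, Ina, 9930012K11Rik and Galnt10 (r from 0.72 to 0.78, rho from 0.5 to 0.86), and the nearest to Aldh1a1 were Hmx1, Zglp1, Cebpg, Gm10336 and Adgrg2 (r from 0.78 to 0.81, rho from 0.66 to 0.88). The points share arrays and scaling, and the highest of so many correlations is high by selection.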

How the data were processed

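Mouse ganglia were measured on 42 Affymetrix arrays, 1 per sample, in 6 groups. The authors deposited linear signal intensity values made with MAS5, per the submitters' processing notes (no version is named). The samples' descriptions call all of them laser captured; the extraction protocol and the design name whole ganglia for the first experiment, and these were followed. Arrays were scaled to the same 2% trimmed mean within an experiment. Signals became log2(signal + pseudocount), the pseudocount being the 20th percentile of scaled values (11.4 where 4 groups were fitted together), and control probe sets were left out. NG was compared with DRG by limma 3.58.1 in R 4.3.3 (lmFit, eBayes with trend and robust, Benjamini-Hochberg over all probe sets tested). The joint fit tested captured against whole tissue and the interaction. The procedure was tested on simulated data. A gene's value is that of its probe set with the highest mean log2 signal. All 9 genes are named, with up to 3 other pathway genes per direction and experiment by size of difference, and the 5 nearest patterns. The members and gene lists were chosen with earlier results of these data known. Alternatives changed scaling, pseudocount, filter, probe set, array weights, moderation, a Gapdh 3' to 5' covariate, sample sets and a block on sample number.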

Additional observations from a re-analysis of the deposited data

Results flagged for a closer look

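In 41 groups of 4 to 10 samples checked for a sample far from the others, 4 such samples appeared; chance gives about 1 in 20. Rxrg in whole NG sample 036 was 26.15, with the other 6 at 44.07 to 54.89. Rxra in captured DRG sample 010 on MG-U74Av2 was 49.74, with the others at 154.6 to 189.5. Rxrb in captured NG sample 007 on MG-U74Av2 was 771.5, with the others at 1335 to 1614. Rarg in captured DRG sample 015 on Mouse430_2 was 40.95, with the others at 80.12 to 153.3.

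The difference between ganglia itself differed between captured and whole tissue, by limma's interaction test, for 5 of 28 other pathway genes tested. Of all probe sets 18.2% passed that test, so the count is near that share. The log2 values were -2.65 for Nr2f2, -1.65 for Fabp5, -1.22 for Nr2f1, -0.86 for Crebbp and 0.99 for Med1. Nr2f2 did not pass the filter in the captured experiment alone. These 5 passed in all 27 alternatives tried.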

How the results depend on the processing

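Of the 7 tested members, 2 were called on Mouse430_2, 1 within the sample numbers shared with MG-U74Av2 and 1 with the replicate block. In whole ganglia 1 was called, and 0 of 2 tested with the filter at the 60th percentile (the probe set of Rarg no longer passes it). The interaction called 0, and 1 (Rarg) with the pseudocount at the 40th percentile, 1 with quantile normalization and 1 with scaling to the same median; leaving out single samples gave 0 to 2. Among those, Crabp1 passed the filter and was called negative without captured DRG sample 008 (-1.19), whole DRG sample 037 (-1.08) or captured NG sample 010 (-1.1) or 014 (-1.07). Leaving out a sample from a group of 5 lowered the number of arrays the filter asked for. Crabp1 was above the filter level on 2 whole NG and 2 captured DRG arrays, and on 0 of whole DRG and captured NG. A negative difference was thus built into its passing, which limits these calls. Of the other retinoid genes, 6 were called in captured cells on MG-U74Av2, 2 with the Gapdh covariate and 3 with the replicate block; 13 were called on Mouse430_2, 7 within the numbers absent from MG-U74Av2 and 8 within those shared; the interaction called 5, and 5 to 8 on leaving out single samples. Where not stated above, the cause was not tested.

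Deviations of same-numbered DRG and NG samples from their group means correlated at -0.106 to 0.111 over 4 numbers on MG-U74Av2. On Mouse430_2 they correlated at -0.154 to 0.155 over 7 numbers, and not every sample was nearest to its own number. No label states whether a shared number means a shared animal. Noise of capture and arrays could hide such sharing, so this check cannot exclude it. Under the block Rxrb on Mouse430_2 was 0.34 (adjusted p = 0.08767).

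Scaling to the same median moved the share of calls with NG the higher from 55.3% to 40% in whole ganglia and from 43.7% to 63.5% on Mouse430_2, and the share of positive calls from 42.4% to 59.9% for the interaction and from 47.3% to 60.9% for capture in NG, where the median of all probe sets moved from 0.017 to 0.173. The described differences of dim signals depend on the pseudocount: in captured cells on MG-U74Av2, with 1 and with the 40th percentile, Rxrg was -3.84 and -1.61 and Aldh1a1 was -3.88 and -1.94. The alternatives for the interaction over other retinoid genes were chosen after seeing the data. Signals below the filter level limit what can be said of Rara, Crabp1 and Aldh1a2.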
